A study of Mus musculus with 8 samples.

Results

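The 42 genes described here encode 2-oxoglutarate-dependent dioxygenases other than the TET enzymes. They were taken by name. The set holds 15 histone demethylases of the JmjC and related families, 4 other JmjC hydroxylases and 4 HIF prolyl hydroxylases counting the membrane-bound P4htm. It also holds 9 enzymes of the AlkB and FTO family and 6 collagen prolyl and lysyl hydroxylases. The remaining genes are 3 enzymes of carnitine and lipid metabolism and the EGF-domain hydroxylase Asph. DNA methylation was summed over a window at each end of a gene, which reached 1000 bp outwards and 500 bp into the gene. An end was kept where it held at least 3 CpG cytosines and at least 20 reads in each of the 8 libraries. Of the 84 ends, 33 passed this filter, and they belonged to 31 of the 42 genes. In the whole gene table of 49554 genes, 14721 distinct windows passed it and were tested.

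The DNA came from mouse I1DN leukaemic progenitors labelled cKit+/Cd11b-, and the assay was RRBS (reduced representation bisulfite sequencing), in which DNA is cut at CpG-rich sites and bisulfite treatment lets methylated cytosines be told from unmethylated ones. The 4 groups of 2 libraries each came from transplanted mice given AG120 together with AZA (the combination), AG120 alone, AZA alone, or Vehicle, with a treatment time of 5 days in every group. AG120 is ivosidenib, an inhibitor of mutant IDH1, and AZA is azacitidine, an inhibitor of DNA methyltransferases. All 4 groups share the I1DN leukaemia, and the sources used here give neither its alleles, nor the age and strain of the mice, nor the number of animals behind a library. Nothing in the labels says that the libraries of a group came from separate animals, so p-values measure only the spread between these libraries, which may be technical. In the text, the 2 values of a group are those of its replicate 1 and replicate 2 libraries, and a level is the percentage of reads over all cytosines of an end that called the cytosine methylated.

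Dioxygenases of this family use iron, oxygen and 2-oxoglutarate to add a hydroxyl group to a protein side chain, a methylated base or a methylated histone lysine, and release succinate and carbon dioxide. On a methyl group the hydroxylation leads to its removal, which is how the demethylases among the JmjC and AlkB proteins work. The HIF prolyl hydroxylases mark HIF alpha subunits for destruction when oxygen is present, and the collagen hydroxylases act on procollagen chains in the endoplasmic reticulum. Mutant IDH1 makes 2-hydroxyglutarate, which resembles 2-oxoglutarate and can compete with it in these enzymes, and AG120 lowers its production. The data here are DNA methylation at the genes of these enzymes. They measure neither the activity nor the expression of the enzymes, and in bulk DNA a change in the mix of cells and a change within cells cannot be told apart.

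The CpG content of the starts differed widely between the genes, as a CpG-rich and a CpG-poor promoter show. They are printed from 250 bases before to 50 bases after the gene start, 5′ to 3′ on the strand of the gene, from RefSeq sequence of the GRCm38.p6 build, with each CpG in capitals. Phf2 (chr13:48870836-48871135, minus strand) has 63 CpGs, and 114 of its cytosines were read in at least 1 library. Bbox1 (chr2:110305676-110305975, minus strand) has 2 CpGs, of which no cytosine was read.
Phf2: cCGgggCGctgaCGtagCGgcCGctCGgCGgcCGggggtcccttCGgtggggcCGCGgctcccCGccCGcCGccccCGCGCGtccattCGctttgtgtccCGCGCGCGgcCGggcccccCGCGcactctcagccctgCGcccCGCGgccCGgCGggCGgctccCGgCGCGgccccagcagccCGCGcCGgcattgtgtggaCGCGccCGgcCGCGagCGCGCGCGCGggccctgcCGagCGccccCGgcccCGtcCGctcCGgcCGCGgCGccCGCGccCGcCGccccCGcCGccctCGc
Bbox1: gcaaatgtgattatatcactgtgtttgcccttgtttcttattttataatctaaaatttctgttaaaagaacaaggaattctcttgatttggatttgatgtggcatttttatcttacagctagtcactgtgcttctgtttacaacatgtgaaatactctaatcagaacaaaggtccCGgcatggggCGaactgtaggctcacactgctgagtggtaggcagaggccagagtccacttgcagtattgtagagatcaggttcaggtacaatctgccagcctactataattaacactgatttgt

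Of the 44 promoters listed for 34 of the 42 genes, 35 held the letters CCGG, the cut site of the enzyme MspI that is commonly used for RRBS, a share of 79.5% against 53.1% of the 32619 promoters of all genes. The 24 members with a kept 5′ end had a median of 25.5 CpGs in their promoter with the most CpGs, ranging from 13 to 65. The 9 members without a kept end that have a listed promoter had a median of 17, ranging from 2 to 40.

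The second set shows the letters ACGTG and GCGTG, the core of the DNA element bound by HIF, in capitals on either strand, so that CACGT and CACGC mark the opposite strand and overlapping matches run together. They are printed because P4ha2 carries methylated reads within these letters, with its family member P4ha1 and the HIF hydroxylase Egln2 beside it. The positions are chr11:54100674-54100973 on the plus strand for P4ha2, chr10:59323046-59323345 on the plus strand for P4ha1 and chr7:27166753-27167052 on the minus strand for Egln2.
P4ha2: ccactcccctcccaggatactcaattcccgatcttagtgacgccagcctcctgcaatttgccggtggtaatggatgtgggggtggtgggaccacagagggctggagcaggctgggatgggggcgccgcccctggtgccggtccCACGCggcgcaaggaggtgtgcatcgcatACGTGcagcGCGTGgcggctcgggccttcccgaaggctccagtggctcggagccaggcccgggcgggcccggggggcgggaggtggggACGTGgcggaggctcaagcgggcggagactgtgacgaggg
P4ha1: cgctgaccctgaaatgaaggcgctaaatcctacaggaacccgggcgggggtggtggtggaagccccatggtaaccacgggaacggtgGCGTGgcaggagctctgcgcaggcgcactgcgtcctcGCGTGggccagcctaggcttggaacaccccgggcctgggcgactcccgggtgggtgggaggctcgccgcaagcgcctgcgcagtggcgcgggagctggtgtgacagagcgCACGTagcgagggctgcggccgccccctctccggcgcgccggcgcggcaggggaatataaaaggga
Egln2: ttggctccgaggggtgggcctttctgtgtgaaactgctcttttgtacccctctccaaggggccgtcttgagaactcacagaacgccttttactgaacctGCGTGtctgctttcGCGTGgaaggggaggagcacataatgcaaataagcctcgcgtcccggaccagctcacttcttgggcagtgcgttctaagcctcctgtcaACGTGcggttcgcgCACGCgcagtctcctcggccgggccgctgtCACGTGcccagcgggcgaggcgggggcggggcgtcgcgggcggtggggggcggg

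Either motif stood in 26 of the 44 member promoters (59.1%), belonging to 22 members, and in 44.0% of all promoters. A match is a string of letters and not a known binding site.

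Among the 33 kept ends, 24 were 5′ ends by the strand given in the promoter table, 3 were 3′ ends (Phf2, Jmjd8 and P4htm), and 6 belonged to genes whose strand was not known here (Kdm2a, Kdm3b, Kdm4b, Kdm5a, Kdm6b and Asph). Phf2 and P4htm were kept at both ends. The windows of 15 kept ends overlapped that of another gene, so their levels are not those of the dioxygenase gene alone. Among them were Kdm2a, Jmjd1c, Kdm5a, Kdm6b, the 5′ end of Phf2, Jmjd4, Jmjd6, Egln1, Alkbh4 and Plod3. A further 3 of the 15, Kdm4d (with Cwc15), Alkbh1 and the 3′ end of P4htm, held the same cytosines as another gene. The 11 genes without a kept end were Kdm3a, Kdm4c, Alkbh6, Alkbh7, Alkbh8, Fto, P4ha3, Plod2, Tmlhe, Bbox1 and Phyh, so that the carnitine and lipid enzymes are not described by any value. Of the 51 ends that were not kept, 32 had no covered cytosine, and 17 had at least 3 cytosines but too few reads in at least 1 library. Nearest inside the threshold lay the 5′ end of Egln3 with 28 reads in its lowest library and the 5′ end of P4htm with 34. Nearest outside it lay the 3′ end of P4ha2 with 13 reads and, with 12 reads each, the 5′ end of Jmjd8 and the 3′ end of Alkbh2.

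Depth differed between the groups. Libraries held between 90373925 and 130796962 CpG calls. The methylated share of all these calls was 50.5% and 48.0% in the combination and 41.5% and 49.9% with AG120. It was 39.2% and 36.9% with AZA and 34.1% and 32.6% with Vehicle. A member end had a median of 2327 and 1923 reads in the combination, 2293 and 2479 reads with AG120, 4433 and 3718 reads with AZA and 3567 and 4685 reads with Vehicle. Read numbers over all ends and libraries ran from 28 to 19244 with a median of 2990.5, and the 95% Wilson interval of a level had a median half-width of 0.297 percentage points and a largest one of 8.73 points. These intervals and the upper limits given for a count of 0 cover counting error only, since PCR reads are not independent molecules. No methylated read was found at 36.4% and 33.3% of the member ends in the combination, at 36.4% and 33.3% with AG120, at 15.2% and 18.2% with AZA and at 9.09% in each Vehicle library. Over all gene ends the shares at 0 were 29.0% and 27.4% in the combination, 21.9% and 20.3% with AG120, 15.1% and 13.2% with AZA and 10.6% and 9.28% with Vehicle.

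The ends of these genes were weakly methylated in every group. The mean over the 8 libraries was under 20% at 29 of the 33 member ends (87.9%), against 74.0% of all gene ends, and it was under 5% at 28. Among 5′ ends, 23 of 24 members were under 20%, against 82.7% of all 5′ ends. Of the 264 single values, 63 were 0. The other 4 ends were the 3′ end of Phf2, the lower-coordinate end of Kdm6b, the higher-coordinate end of Kdm2a and the 5′ end of P4ha2.

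**Figure D1:**
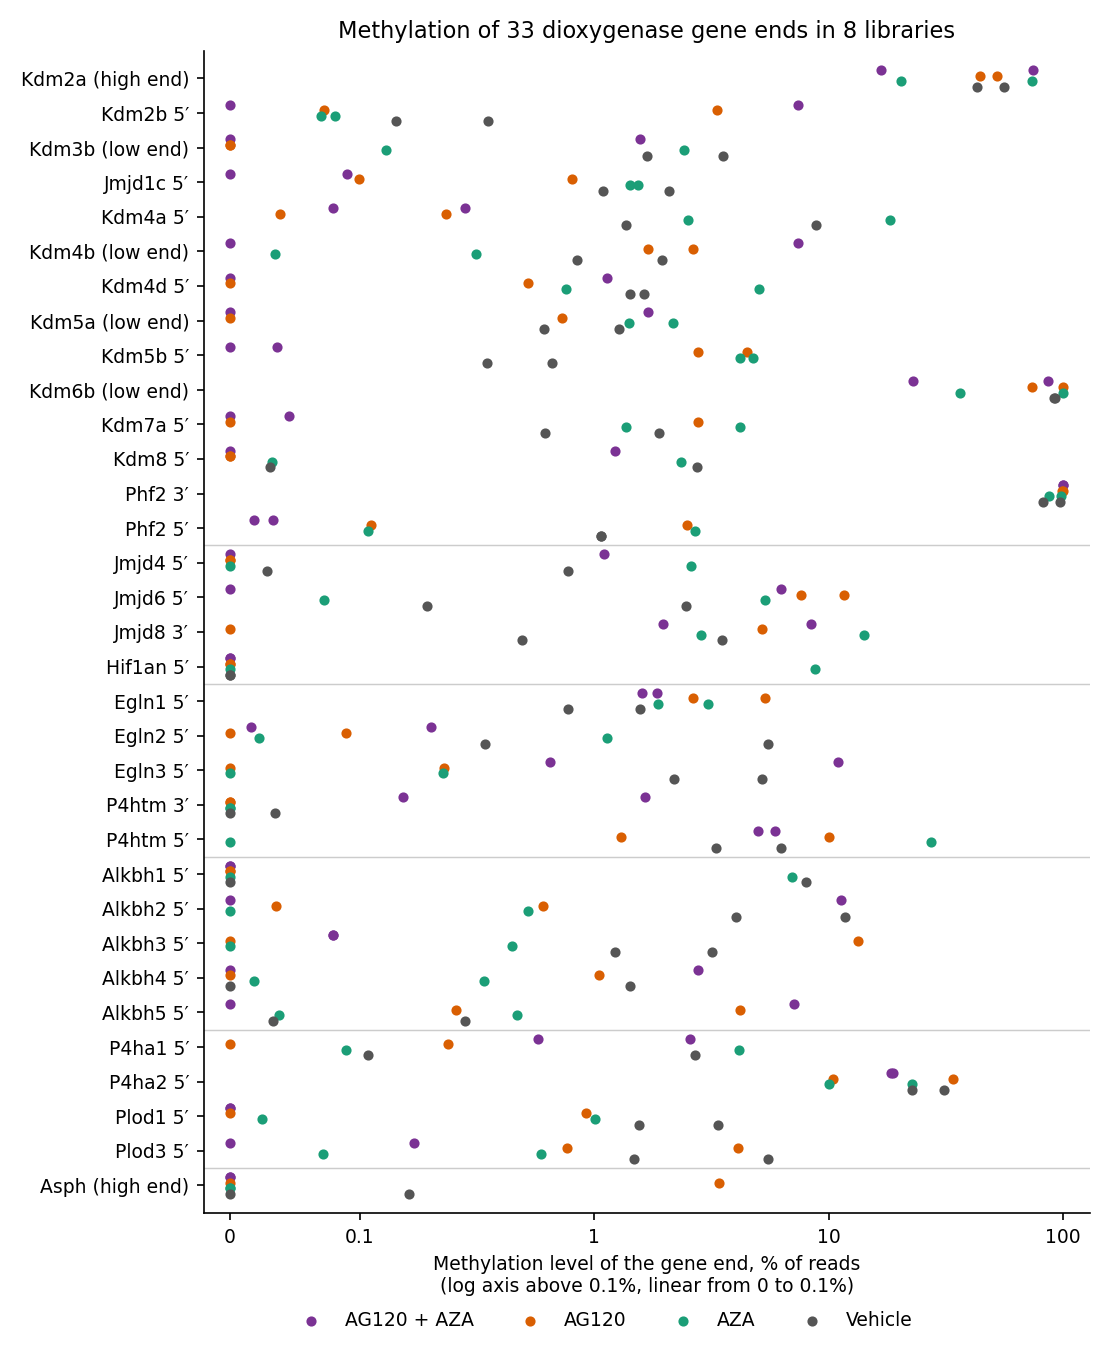
Methylation level (% of reads, log axis above 0.1% and linear below) of the 33 member ends, with 1 point for each library, coloured by group, and grey lines between the role classes. Most points lie below 5%, Phf2 3′ and Kdm6b lie near the top of the scale in most libraries, and the 2 libraries of a group are often far apart.

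The levels of these weakly methylated ends rested on few cytosines. In the 29 ends with a mean under 20%, 134 of 232 values were under 1% and 29 values, in 16 ends, were 5% or more. Of these 29 values, 9 were from the combination, 6 from AG120, 7 from AZA and 7 from Vehicle libraries. Each of the 29 came from an end with at most 5 cytosines methylated in 50% or more of their reads (counting cytosines with at least 10 reads), out of a median of 22 cytosines with that depth, and 26 had at least 1 such cytosine. The cytosines at 50% or more held a median of 97.6% of the methylated reads behind the 29 values, and the cytosine with the most methylated reads held a median of 58.2%. In Kdm2b, 193 of 193 reads of 1 cytosine made the whole level of 7.41% of the second combination library.

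**Figure D2:**
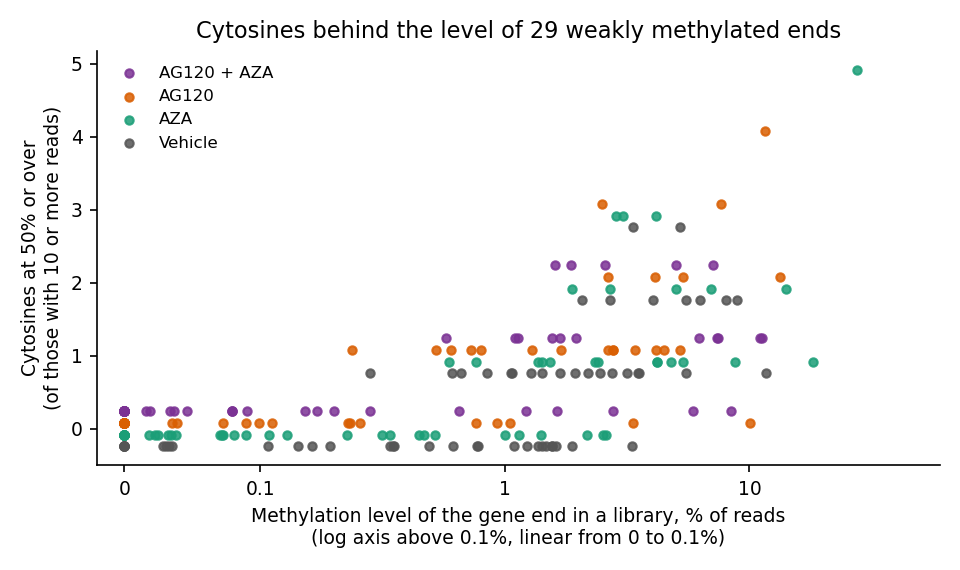
Number of cytosines methylated in 50% or more of at least 10 reads (vertical axis, offset slightly by group) against the methylation level of the end in the same library (% of reads, log axis above 0.1%), with 1 point for each of the 232 values of the 29 weakly methylated ends. No value rests on more than 5 such cytosines, and many values above 1% rest on 1 or 2.

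The libraries also read different cytosines of the same end. Of 3876 cytosines covered in the member ends, 24 had at least 10 reads in all 8 libraries. These 24 lay in 5 ends, and 3 ends (Kdm4b, Kdm5b and Alkbh2) held 3 or more of them. Levels of an end in different libraries were therefore mostly not read at the same cytosines.

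In each of the 5 pairwise comparisons, more member ends were lower than higher in the first group, except in the combination against AG120. Over all gene ends 54.9% were lower in the combination against Vehicle (members 57.6%). The lower share was 52.1% in AG120 against Vehicle (members 57.6%) and 53.6% in AZA against Vehicle (members 54.5%). It was 51.1% in the combination against AZA (members 66.7%) and 51.0% in the combination against AG120 (members 42.4%). The combination was lower than Vehicle at 19 ends, higher at 13 and equal at 1, with a median difference of -0.487 percentage points, against -0.195 points over all gene ends. AG120 was lower than Vehicle at 19 ends, higher at 13 and equal at 1, with a median of -0.400 points against -0.0766 points over all ends. AZA was lower than Vehicle at 18 ends and higher at 15, with a median of -0.0812 points against -0.172 points over all ends. These 3 comparisons share the Vehicle libraries. Over the 14 ends with at least 3 cytosines that had 10 or more reads in each of the 4 libraries compared, the median difference of the combination from Vehicle was 0 points. That median differs from the one above in its ends as well as in its cytosines. The combination was lower than AZA at 22 ends, higher at 10 and equal at 1, with a median of -0.554 points against -0.0207 points over all ends. The combination was higher than AG120 at 17 ends, lower at 14 and equal at 2, with a median of 0.0447 points against -0.0221 points over all ends. Single libraries moved these medians. Without the first Vehicle library they were 0 points for the combination against Vehicle, -0.0286 points for AG120 against Vehicle and 0.334 points for AZA against Vehicle. For the combination against AZA the median was -0.0823 points without the first AZA library and 0 points without the second, and for the combination against AG120 it was -0.320 points without the first combination library and -0.262 points without the second.

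No member end passed a false discovery rate of 0.05 in any comparison with the quasi-likelihood F-test of edgeR, and the share of all gene ends that passed was 0.0% in each. At an unadjusted p under 0.05 that test took 3 member ends in the combination against Vehicle, beside 5.08% of all gene ends. It took 1 member end in AG120 against Vehicle (3.17% of all ends), 0 in AZA against Vehicle (2.36%), 2 in the combination against AZA (4.76%) and 1 in the combination against AG120 (4.53%). At the same false discovery rate, the likelihood ratio test of edgeR called 1 member end in the combination against AZA, beside 0.931% of all ends, and DESeq2 called 1 there (1.01% of all ends) and 1 in the combination against AG120 (1.68%). That end was Kdm5b in each case. In the comparisons with Vehicle neither of them called a member end, while the likelihood ratio test called 1.09% of all ends for the combination, 0.0204% for AG120 and 0.0476% for AZA. DESeq2 called 0.965% of all ends for the combination and 0.0136% for AZA. In the combination against AG120 the likelihood ratio test called 0 member ends, beside 1.26% of all ends. limma called 0 ends in any comparison. As a factor over both states of the other drug, AG120 had 2 member ends at an unadjusted p under 0.05 with the quasi-likelihood test, Kdm4a and Jmjd1c, beside 4.54% of all gene ends. AZA as a factor had 1, Plod3, beside 3.51%, and the interaction of the drugs had 1, Kdm5b, beside 2.68%. No member end was called for the AZA factor by the likelihood ratio test (1.07% of all ends) or by DESeq2 (1.28%).

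The groups did not overlap, with both libraries of the first group lower, at 13 of 33 member ends (39.4%) in the combination against Vehicle, beside 25.2% of all gene ends. They did not overlap, with both libraries of the first group higher, at 3 member ends (9.09%), beside 11.7% of all. In AG120 against Vehicle, 10 member ends (30.3%) had both AG120 libraries lower, beside 20.1% of all ends, and 4 (12.1%) had both higher, beside 12.6%. The counts in AZA against Vehicle were 7 lower (21.2%), beside 19.7% of all ends, and 3 higher (9.09%), beside 12.7%. In the combination against AZA they were 7 lower (21.2%), beside 20.1%, and 3 higher (9.09%), beside 13.0%. In the combination against AG120 they were 6 lower (18.2%), beside 17.3%, and 3 higher (9.09%), beside 12.3%. The shares of member ends that were lower without overlap stood above those of all gene ends most in the comparisons of both AG120-treated groups with Vehicle. In these comparisons the first group also has fewer reads and more ends at 0 than Vehicle. Its methylated share of all CpG calls is larger. The parts of depth and of this share in the counts were not tested. The counts include ends whose separation lay within counting error, among them Kdm3b, Egln1 and the 3′ end of P4htm in the combination against Vehicle.

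**Figure D3:**
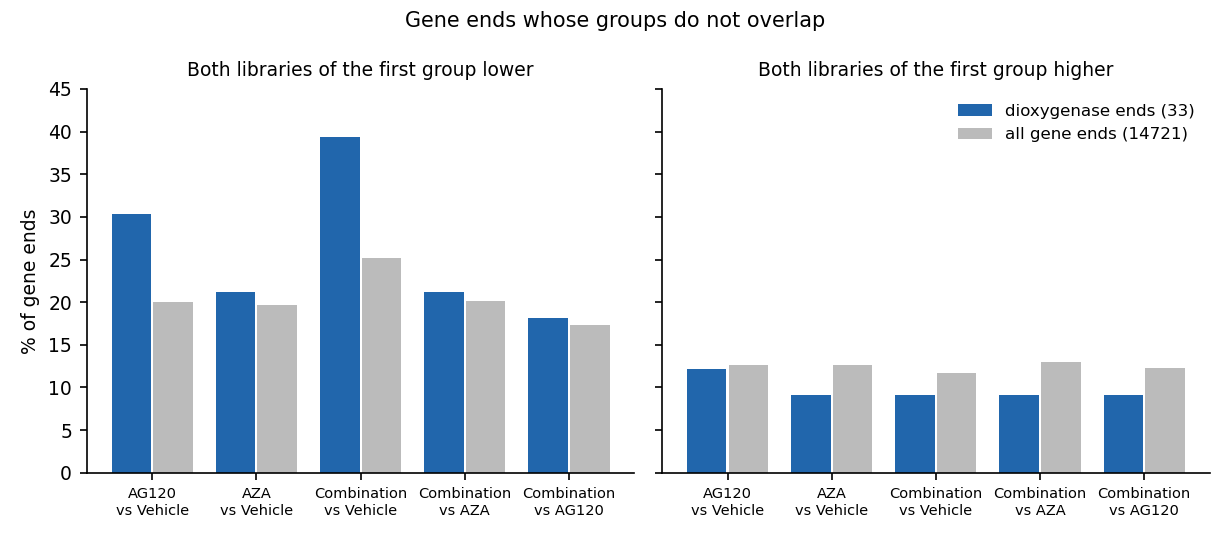
Share of gene ends (%) at which both libraries of the first-named group were lower (left panel) or higher (right panel) than both libraries of the second, for the 33 member ends in blue and all 14721 gene ends in grey. Blue stands above grey most in the combination against Vehicle, at 39.4% against 25.2% for lower ends.

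The histone demethylases remove methyl groups from lysines of histone H3 and take up 14 of the 33 ends. In the combination, 11 of the 14 were lower than Vehicle (54.9% of all gene ends) and 3 higher (43.6% of all). Without overlap, 8 were lower (25.2% of all gene ends) and 1 higher (11.7% of all). The combination was lower than AZA at 11 (51.1% of all) and higher at 3 (46.9%). AG120 was lower than Vehicle at 8 (52.1% of all) and higher at 6 (46.5%). AZA was lower than Vehicle at 7 (53.6% of all) and higher at 7 (45.5%). None passed the threshold of the quasi-likelihood test.

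Kdm5b, which removes methyl groups from lysine 4 of histone H3, had the smallest p of any member end in a pairwise comparison and in the interaction. Its 5′ end (chr1:134559178-134560678) had levels of 0% and 0.0366% in the combination, 4.46% and 2.76% with AG120, 4.77% and 4.18% with AZA and 0.662% and 0.349% with Vehicle. Both combination libraries were lower than all others, and both AG120 and both AZA libraries were higher than both Vehicle libraries. The mean level was 0.0183% ± 0.0259 in the combination, 3.61% ± 1.21 with AG120, 4.47% ± 0.417 with AZA and 0.505% ± 0.222 with Vehicle (SD, n = 2 each). With edgeR's quasi-likelihood test, the unadjusted p was 0.0103 for the combination against AZA and 0.0131 for the combination against AG120, and the adjusted p was 1 in both. The interaction, that is, the difference between the effect of AG120 with AZA and without it, had an unadjusted p of 0.00768 and an adjusted p of 1. The likelihood ratio test gave an adjusted p of 0.0443 for the combination against AZA and 0.0364 for the interaction. The likelihood ratio test called 0.462% of all gene ends for the interaction, and DESeq2 0.618%. DESeq2 gave Kdm5b adjusted values of 0.0432 for the combination against AZA, 0.0435 for the combination against AG120 and 0.0269 for the interaction. Over its 18 alternatives the adjusted p of Kdm5b ranged from 0.0432 to 1 for the combination against AZA, from 0.0435 to 1 for the combination against AG120 and from 0.0269 to 1 for the interaction.

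The methylated reads of Kdm5b lay within a short stretch after its start. At the cytosine 259 bases after the start, 0 of 7 and 0 of 1 reads were methylated in the combination, 115 of 117 and 80 of 128 with AG120, 0 of 96 and 91 of 114 with AZA, and 0 of 103 and 1 of 507 with Vehicle. The combination libraries therefore had 8 reads in all at the cytosine that held most methylated reads of the AG120 libraries. In the first AZA library the methylated reads lay elsewhere, at 125 of 316 reads 289 bases after the start and at 24 of 26 reads 288 bases after it. At the first of these, 0 of 76 and 0 of 304 reads of the combination were methylated. Over the 6 cytosines with at least 10 reads in every library, the level was 0% and 0% in the combination, 0% and 5.36% with AG120, 6.59% and 6.42% with AZA and 0% and 0% with Vehicle. There the combination lay below both AZA libraries, and below only 1 of the AG120 libraries.

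Kdm7a, which acts on lysines 9 and 27 of histone H3, had 0.0458% and 0% in the combination libraries, 2.76% and 0% in the AG120 libraries, 4.20% and 1.36% in the AZA libraries and 0.614% and 1.88% in the Vehicle libraries at its 5′ end. The combination lay below both AZA and both Vehicle libraries, with an unadjusted p of 0.0433 against AZA in edgeR's quasi-likelihood test and an adjusted p of 1. Jmjd1c, a JmjC protein of the Kdm3 family, had 0% and 0.0900% in the combination, 0.802% and 0.0994% with AG120, 1.53% and 1.42% with AZA and 2.07% and 1.09% with Vehicle. Its combination libraries were below both AZA libraries (unadjusted p of 0.0674, adjusted p of 1, edgeR), and also below both AG120 and both Vehicle libraries. The separation from the second AG120 library lay within counting error. The 0 of the first combination library allows a level of up to 0.502%. The Wilson interval of the second combination library, 0.0247% to 0.327%, overlapped that of the second AG120 library, 0.0338% to 0.292%.

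Kdm4a, a demethylase of lysines 9 and 36, had 0.0796% and 0.281% in the combination libraries, 0.0389% and 0.232% in the AG120 libraries, 18.3% and 2.52% in the AZA libraries and 1.37% and 8.86% in the Vehicle libraries. All 4 libraries with AG120 were below all 4 without it, and the 2 AZA libraries were themselves far apart. For AG120 as a factor, over both states of AZA, the unadjusted p of Kdm4a was 0.0218 and the adjusted p 1 with the quasi-likelihood test, while the likelihood ratio test gave an adjusted p of 0.0462 and DESeq2 one of 0.0314. Over 17 alternatives that adjusted p ranged from 0.0314 to 1. Kdm4a was the only member end that either tool called for this factor, beside 1.73% of all gene ends by the likelihood ratio test and 2.38% by DESeq2. The level of 18.3% of the first AZA library came from 1 cytosine with 128 of 241 reads methylated, and none of the 29 cytosines of this end had 10 reads in all 8 libraries.

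Kdm3b, which acts on lysine 9, had 1.56% and 0% in the combination, 0% and 0% with AG120, 2.41% and 0.129% with AZA and 1.68% and 3.54% with Vehicle at its lower-coordinate end. The AG120 libraries held 0 methylated reads, which allows a level of up to 0.126% over both, and lay below both Vehicle libraries (unadjusted p of 0.0429, adjusted p of 1, edgeR's quasi-likelihood test). The combination libraries were also below both Vehicle libraries. There the separation of the first combination library from the first Vehicle library lay within counting error. Their Wilson intervals, 1.29% to 1.89% and 1.31% to 2.16%, overlapped.

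Phf2, a PHD-finger demethylase related to Kdm7a, was measured at both ends, and they differed in level in every library. The 5′ end (chr13:48870385-48871885), the deepest of the members with 86458 reads, had 0.0336% and 0.0189% in the combination libraries, 2.49% and 0.111% in the AG120 libraries, 2.70% and 0.109% in the AZA libraries and 1.06% and 1.07% in the Vehicle libraries. The combination was below all 6 other libraries, and its unadjusted p against Vehicle was 0.0288 in edgeR's quasi-likelihood test, with an adjusted p of 0.961. The 3′ end (chr13:48800750-48802250) had 99.9% and 99.5% in the combination, 98.9% and 99.9% with AG120, 87.1% and 98.0% with AZA and 82.4% and 96.9% with Vehicle over 12 cytosines. There both combination and both AG120 libraries were above both Vehicle libraries.

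**Figure D4:**
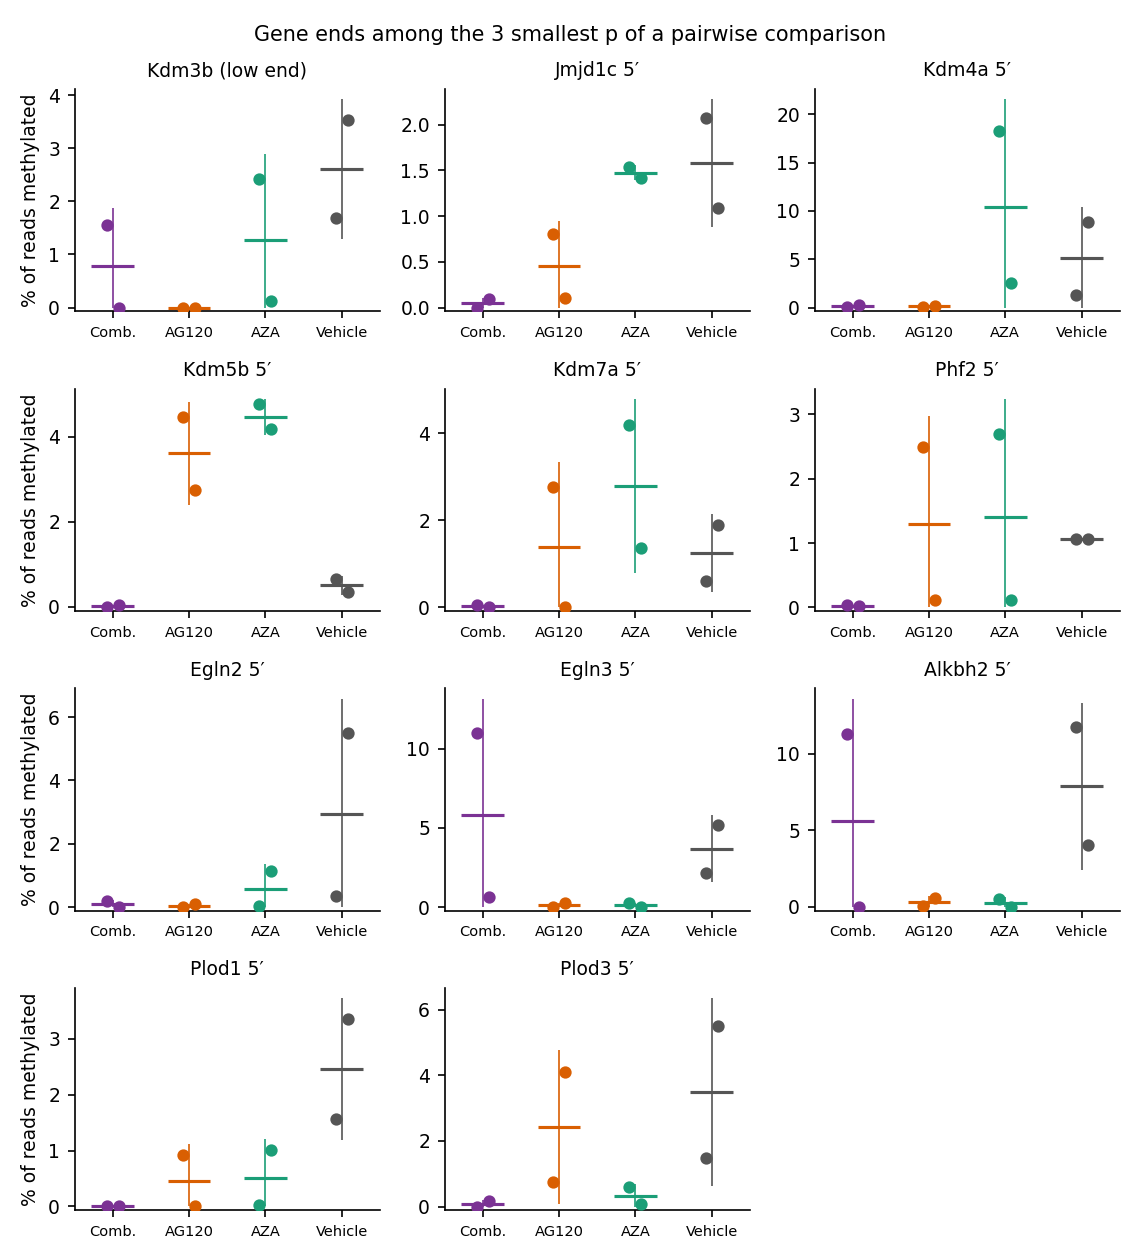
Methylation level (% of reads, linear axes from 0) of the 11 member ends that were among the 3 smallest p of a pairwise comparison, with a point for each library, a horizontal bar at the group mean and a vertical line of 1 SD either side, ended at 0 (n = 2 libraries each). Both combination libraries lie at or near 0 in all panels except Kdm3b, Egln3 and Alkbh2, where 1 of them is higher, and the libraries of the other groups often lie far apart.

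The remaining histone demethylases were not among the ends with the smallest p. Kdm5a, like Kdm5b a demethylase of lysine 4, had 0% and 1.69% in the combination, 0.726% and 0% with AG120, 1.41% and 2.16% with AZA and 0.607% and 1.27% with Vehicle. Both AZA libraries were above both Vehicle libraries, and the combination and AG120 each overlapped Vehicle. Kdm6b, which acts on lysine 27, and Kdm2a, a CXXC-domain demethylase of lysine 36, were the members with the widest ranges. Kdm6b had 22.8% and 86.6% in the combination libraries, 73.9% and 99.9% in the AG120 libraries, 100% and 36.4% in the AZA libraries and 92.1% and 91.1% in the Vehicle libraries at its lower-coordinate end, and only Vehicle had libraries within 1 point of each other. Kdm2a had 74.2% and 16.7% in the combination, 52.0% and 44.2% with AG120, 73.5% and 20.4% with AZA and 55.9% and 42.9% with Vehicle at its higher-coordinate end. Its AZA libraries and its combination libraries each spanned more than the other groups, and the group means lay between 45.5% and 49.4%. Neither end had a cytosine with a read in all 8 libraries. The other ends of the class, of Kdm2b, Kdm4b, Kdm4d and Kdm8, lay between 0% and 7.41%, and each had at least 1 combination library at 0.

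The JmjC hydroxylases outside the histone demethylases are Jmjd4, which acts on a translation termination factor in human cells, the lysyl hydroxylase Jmjd6, Jmjd8 and Hif1an (FIH), an asparaginyl hydroxylase of HIF alpha. AZA was higher than Vehicle at all 4 of their ends (45.5% of all gene ends). The combination was higher than Vehicle at 3 (43.6% of all) and equal at 1. No end was free of overlap in either comparison, beside 12.7% of all gene ends higher without overlap for AZA and 11.7% for the combination. Jmjd6 had 0% and 6.25% in the combination, 11.6% and 7.65% with AG120, 0.0725% and 5.34% with AZA and 2.45% and 0.194% with Vehicle at its 5′ end. Both AG120 libraries were above every other library. Behind them stood 4 cytosines at 50% or more in the first AG120 library and 3 in the second. Jmjd4 had 1.10% and 0% in the combination libraries, 0% and 0% in the AG120 libraries, 0% and 2.60% in the AZA libraries and 0.772% and 0.0286% in the Vehicle libraries, with groups that overlapped except that AG120, at 0 in both libraries, lay below both Vehicle libraries. The 0 of AG120 allows a level of up to 0.254% over both libraries, which is above the 0.0286% of the second Vehicle library. The 3′ end of Jmjd8 ranged from 0% to 14.1%. Hif1an had 7 libraries at 0 and 8.77% in the second AZA library, from 47 of 67 reads of 1 cytosine.

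The HIF prolyl hydroxylases Egln1, Egln2 and Egln3 (PHD2, PHD1 and PHD3) and the membrane-bound P4htm gave 5 ends. The combination was higher than Vehicle at 4 (43.6% of all gene ends) and lower at 1 (54.9% of all). Without overlap, 2 were higher (11.7% of all gene ends) and 1 lower (25.2% of all). AG120 was higher than Vehicle at 2 (46.5% of all) and lower at 3 (52.1%), and so was AZA (45.5% and 53.6% of all). Egln1, the main oxygen-dependent regulator of HIF, had 1.60% and 1.86% in the combination, 5.35% and 2.63% with AG120, 3.04% and 1.88% with AZA and 0.774% and 1.56% with Vehicle at its 5′ end (chr8:124948754-124950254). All 6 drug-treated libraries were above both Vehicle libraries, while the smallest unadjusted p of this end in a pairwise comparison was 0.278 (edgeR's quasi-likelihood test, adjusted p = 1). The separation of the first combination library from the second Vehicle library lay within counting error. Their Wilson intervals, 1.28% to 2.01% and 1.37% to 1.78%, overlapped. None of the 312 cytosines of this end had a read in all 8 libraries.

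Egln2 had 0.200% and 0.0160% in the combination libraries, 0% and 0.0894% in the AG120 libraries, 0.0225% and 1.138% in the AZA libraries and 0.341% and 5.51% in the Vehicle libraries. Both AG120 and both combination libraries lay below both Vehicle libraries, with an unadjusted p of 0.0945 and an adjusted p of 1 for AG120 in edgeR's quasi-likelihood test. Egln3 had 11.01% and 0.650% in the combination, 0% and 0.228% with AG120, 0.227% and 0% with AZA and 2.18% and 5.18% with Vehicle. Both AG120 and both AZA libraries lay below both Vehicle libraries (unadjusted p of 0.0717 and adjusted p of 1 for AZA against Vehicle, edgeR). The first combination library of Egln3 rested on 109 reads, of which 12 methylated ones came from 1 cytosine with 15 reads, and the first AG120 library held 28 reads.

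P4htm had 5.88% and 5.01% in the combination, 1.30% and 10.1% with AG120, 27.4% and 0% with AZA and 6.27% and 3.30% with Vehicle at its 5′ end, after Kdm6b and Kdm2a the widest range of the members. The first combination library held 34 reads there, 2 of them methylated, and the 27.4% of the first AZA library came from 5 cytosines at 50% or more. The listed start of P4htm lies just outside this window, and around it the first AZA library had 0.205% of 7793 reads methylated. At the 3′ end of P4htm, which shares all its cytosines with Wdr6, levels lay between 0% and 1.64%, and both combination libraries were above both Vehicle libraries. The second combination library held 1 methylated read among 655. Its Wilson interval, 0.0270% to 0.860%, overlapped that of the second Vehicle library, 0.00613% to 0.196%.

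Several AlkB enzymes remove alkyl groups from DNA or RNA bases. Of the 9 genes of the class, Alkbh1 to Alkbh5 had a kept end, all 5′. The combination was lower than Vehicle at 3 and higher at 2, AG120 at 3 and 2, and AZA at 4 and 1. The shares of all gene ends that were lower than Vehicle were 54.9%, 52.1% and 53.6% in the same order. Alkbh2, a DNA repair enzyme, had 11.3% and 0% in the combination, 0.0352% and 0.605% with AG120, 0.519% and 0% with AZA and 11.7% and 4.02% with Vehicle. Both AZA and both AG120 libraries were below both Vehicle libraries, and the combination libraries spanned nearly the whole range. The smallest p in a comparison with Vehicle was 0.141, for AZA (adjusted p = 1, edgeR's quasi-likelihood test). The listed start of Alkbh2 lies outside this window, and around it the Vehicle libraries had 0% of 2289 and 0% of 138 reads methylated. Alkbh5, an RNA demethylase of N6-methyladenosine, had 7.09% and 0% in the combination libraries, 4.17% and 0.256% in the AG120 libraries, 0.0379% and 0.468% in the AZA libraries and 0.0330% and 0.282% in the Vehicle libraries, and Alkbh4 had 2.76% and 0% in the combination, 0% and 1.05% with AG120, 0.338% and 0.0182% with AZA and 1.41% and 0% with Vehicle. In both, the highest value was the first combination library and the second combination library was at 0. Alkbh3 ranged from 0% to 13.3%, the highest being the first AG120 library with 2 cytosines at 50% or more. Alkbh1, whose window shares all its cytosines with Slirp and Nrp, had 6 libraries at 0, and the others were 6.98% (AZA) and 8.01% (Vehicle).

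The collagen hydroxylases are the prolyl hydroxylases P4ha1 and P4ha2 and the lysyl hydroxylases Plod1 and Plod3. AG120 was lower than Vehicle at all 4 of their 5′ ends (52.1% of all gene ends), AZA at 3 (53.6%) and the combination at 3 (54.9%). None of the 3 ends lower in the combination overlapped between the combination and Vehicle, beside 25.2% of all gene ends that were lower without overlap. Plod1 had 0% and 0% in the combination, 0.925% and 0% with AG120, 0.0245% and 1.004% with AZA and 1.56% and 3.35% with Vehicle. The combination held 0 methylated reads, which allows a level of up to 0.0740% over both libraries, and the unadjusted p against Vehicle was 0.0335 (adjusted p = 0.961, edgeR's quasi-likelihood test). All 6 drug-treated libraries of Plod1 were below both Vehicle libraries. Plod3 had 0% and 0.171% in the combination libraries, 0.762% and 4.10% in the AG120 libraries, 0.589% and 0.0716% in the AZA libraries and 1.47% and 5.52% in the Vehicle libraries, and the combination lay below both Vehicle libraries with an unadjusted p of 0.0410 and an adjusted p of 0.961 in the same test. P4ha1 had 0.576% and 2.56% in the combination, 0% and 0.237% with AG120, 0.0894% and 4.15% with AZA and 2.68% and 0.108% with Vehicle, with overlapping Vehicle, AZA and combination libraries.

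P4ha2, a catalytic subunit of the prolyl hydroxylase that modifies procollagen, was the only 5′ end with a mean above 20%. Its window (chr11:54099924-54101424) had 18.5% and 18.9% in the combination libraries, 10.4% and 34.1% in the AG120 libraries, 10.04% and 22.7% in the AZA libraries and 22.7% and 31.0% in the Vehicle libraries. The combination lay below both Vehicle libraries and within the range of the other groups. Its CpGs were described after their values had been seen, and with no test. The promoter printed above holds 26 CpGs, 4 of them in the HIF motif letters. At the ACGTG 77 bases before the start (position -77), 0 of 1 and 0 of 32 reads were methylated in the combination, 0 of 62 and 0 of 62 with AG120, 0 of 6 and 4 of 272 with AZA, and 159 of 173 and 62 of 96 with Vehicle. Vehicle thus stood apart at this CpG, at 91.9% and 64.6%, and the combination had 33 reads in all.

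Some neighbouring CpGs of P4ha2 also had their highest share with Vehicle, and others did not. At -83, 0 of 33 reads were methylated in the combination, 0 of 124 with AG120, 38 of 278 with AZA and 219 of 269 with Vehicle, summed over the libraries of a group. At -63 the sums were 0 of 33 in the combination, 2 of 124 with AG120, 0 of 278 with AZA and 129 of 269 with Vehicle, and at -48 they were 0 of 33, 0 of 124, 0 of 278 and 130 of 269 in the same order of groups. At -63 and -48, 129 of the methylated Vehicle reads at each CpG came from the first Vehicle library, so that the Vehicle libraries differed there. At -70, 33 of 33 reads were methylated in the combination, 108 of 124 with AG120, 50 of 278 with AZA and 269 of 269 with Vehicle. At -68, in GCGTG, 0 of 33, 0 of 124, 0 of 278 and 0 of 269 were methylated in the same order of groups. At -105, in the GCGTG on the opposite strand, 33 of 33 reads were methylated in the combination, 4 of 124 with AG120, 44 of 278 with AZA and 143 of 269 with Vehicle. All methylated Vehicle reads at -105 came from the first Vehicle library, and all methylated AZA reads from the second AZA library. Of the combination reads there, all but 1 came from the second library. The sums at -105 are therefore not levels that the libraries of a group shared. At 11 bases after the start, in ACGTG, 0 of 11, 0 of 108, 0 of 78 and 0 of 115 reads were methylated, again in that order.

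**Figure D5:**
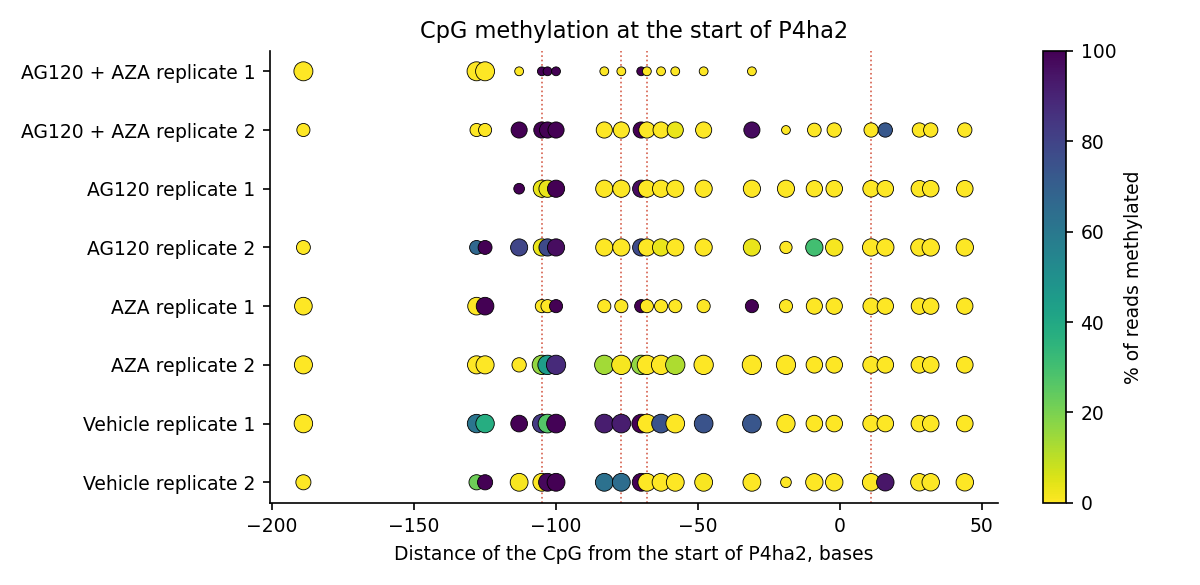
Methylation of the CpGs around the start of P4ha2 in each library, by distance from the start in bases (horizontal axis), with colour for the percentage of reads methylated and larger points for more reads. Dotted lines mark the 4 CpGs within ACGTG or GCGTG, and at -77 the Vehicle libraries are dark and the libraries of the other groups are at or near 0.

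Outside P4ha2 the motif CpGs of the members were almost free of methylated reads. Of 56 motif CpGs in member promoters, 45 had a read, in 18 members. Outside P4ha2 these were 41 CpGs with 19348 reads, of which 4 were methylated (0.0207%). They lay at 2 CpGs, in Plod3 (3 reads of the second AZA library) and in Jmjd6 (1 read of the first AZA library).

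Asph, which hydroxylates EGF-like domains, had 0% and 0% in the combination, 0% and 3.40% with AG120, 0% and 0% with AZA and 0% and 0.162% with Vehicle at its higher-coordinate end. The second AG120 library alone was above 1%, and the combination and AZA held 0 methylated reads, which allows up to 0.123% and 0.107%.

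Other genes of the pathways gave no call in the combination against Vehicle. In that comparison 54.9% of all gene ends were lower and 43.6% higher. Of 22 further dioxygenases and JmjC proteins, 20 matched the gene table and 15 ends were kept: the combination was lower than Vehicle at 9 and higher at 6, with a median difference of -1.01 points, and 0 passed the quasi-likelihood test of edgeR. The smallest p there was that of Jmjd7, a lysyl hydroxylase in human cells whose window shares its cytosines with Gm28042. It had 96.2% and 100% in the combination, 15.1% and 76.9% with AG120, 5.50% and 32.4% with AZA and 9.07% and 0% with Vehicle (unadjusted p of 0.0170, adjusted p of 0.961). Both combination libraries of Jmjd7 were above all others. Riox2, a ribosomal oxygenase, had 0% and 0% in the combination, 5.80% and 0% with AG120, 0% and 0% with AZA and 1.07% and 5.26% with Vehicle (unadjusted p of 0.0591, adjusted p of 0.962).

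The HIF pathway list of 19 genes had 18 matched and 12 kept ends, of which 7 were lower and 5 higher in the combination than in Vehicle, 6 (25.2% of all gene ends) and 1 (11.7% of all) of them without overlap, with a median difference of -0.263 points and 0 past the test. Cul2, the cullin of the VHL ubiquitin ligase, had 0% and 0% in the combination, 3.13% and 1.17% with AG120, 0.116% and 0.227% with AZA and 3.77% and 0.0635% with Vehicle (unadjusted p of 0.0947, adjusted p of 0.989, edgeR). Elob, an adaptor of the same ligase, had 0% and 0% in the combination, 0% and 0% with AG120, 0.186% and 0.888% with AZA and 0.147% and 0.307% with Vehicle (unadjusted p of 0.148, adjusted p of 1). The 4 kept ends of the TET genes included a 3′ end of Tet1 at 97.8% or more in every library and a 5′ end of Tet2 at or under 0.613%, and 3 were higher and 1 lower in the combination than in Vehicle. Their unadjusted p in that comparison was 0.335 for Tet1 and 0.670 for Tet2 (adjusted p = 1 for both, edgeR).

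The cell type label could not be checked in full from methylation at its defining markers, since Kit had a kept end and Itgam (Cd11b) had none. Of 8 progenitor and myeloid markers, Kit, Cd34 and Cebpa had a kept end, and their mean level was 1.12% and 5.66% in the combination, 1.22% and 2.59% with AG120, 0.850% and 2.95% with AZA and 8.95% and 1.46% with Vehicle. At 2 of the 3 progenitor and myeloid ends, Cd34 and Cebpa, both combination libraries were below both Vehicle libraries (25.2% of all gene ends) and both AZA libraries (20.1% of all). The remaining end, Kit, went the other way. Its mean was higher in the combination than in Vehicle, with overlap, and both combination libraries were above both AZA libraries (13.0% of all). At Cd34, which encodes a surface protein of haematopoietic progenitors, levels were 0% and 0% in the combination, 0.0799% and 0% with AG120, 1.54% and 5.52% with AZA and 7.30% and 1.08% with Vehicle (unadjusted p of 0.0309 and adjusted p of 0.961 for the combination against Vehicle, edgeR). Cebpa, a myeloid transcription factor, had 0.0303% and 0.145% in the combination, 2.59% and 1.91% with AG120, 0.624% and 0.988% with AZA and 0.191% and 3.15% with Vehicle (unadjusted p of 0.138, adjusted p of 1, the same test). The markers of other cell types gave 3 ends. Those of Cd4 (lymphoid) and Itga2b (megakaryocytic) were at 6.31% or less in every library, and that of Pdgfrb (stromal), whose window also holds Gm52351, ran from 0% to 64.5%. Both combination libraries of Itga2b, at 3.71% and 2.79%, were above both Vehicle libraries, at 0% and 1.25%. For the combination against Vehicle the unadjusted p was 0.414 for Cd4, 0.302 for Itga2b and 0.909 for Pdgfrb (adjusted p = 1 for each, edgeR). Their part in the member levels was not tested.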

How the data were processed

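The authors deposited 1 table of raw counts of methylated and unmethylated reads at each CpG cytosine of 8 RRBS libraries, with no normalization, per the file headers. The submitters' processing notes name genome build mm10, Bismark 0.22.3, Trim Galore 0.4.4 and edgeR 3.32, among other tools, with no role or order. Spike-in controls were not used here, and conversion rates and read filters are not known.

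Of 4006353 cytosines, 4003423 on the 19 autosomes and X were used. Gene ends came from a RefSeq gene table of the GRCm38.p6 assembly, which has the coordinates of mm10, and strand from the promoter table of the same assembly. Counts were summed per gene end and library. An end was kept with at least 3 cytosines and 20 reads in every library. Ends with the same cytosines were merged, and ends with no methylated or no unmethylated read in any library were left out of the fit, which leaves 14721 windows of 14784.

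All 8 libraries were fitted together with edgeR 4.0.16 (R 4.3.3). The model had library terms and, for methylation, 1 term for each group, and the test was the two-sided robust quasi-likelihood F-test. Benjamini-Hochberg adjustment ran over all windows at a false discovery rate of 0.05. Alternatives were the likelihood ratio test, limma 3.58.1 on log2 ratios (pseudocount 2), DESeq2 1.42.0, a replicate block, other coverage filters, a shorter window, shared cytosines, a limit of 50 reads per cytosine and leaving out each library. The fitting step was run on simulated binomial counts without added spread between libraries, with changes placed only at more strongly methylated ends. That simulation cannot show how the test performs at weakly methylated ends, which most member ends are. The members and lists were chosen with earlier results of these data known. Values in every library are given for ends called in a comparison, the 3 smallest p of each pairwise comparison, ends with a mean of at least 20%, the 3 widest ranges and the 2 deepest ends of each class. For the other lists, the 2 ends of each with the lowest p between the combination and Vehicle are given, or the 1 end kept. Of the 70 other genes listed, 67 matched the gene table.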

Additional observations from a re-analysis of the deposited data

Results flagged for a closer look

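At 3 member ends, both libraries of AG120 lay on 1 side of both Vehicle libraries while both combination libraries lay on the opposite side of both AZA libraries. This held at 646 of the 14721 gene ends tested, or 4.39%. The Kdm5b 5′ end differed by 3.11 percentage points between AG120 and Vehicle and by -4.45 points between the combination and AZA. The interaction had an unadjusted p of 0.00768 and an adjusted p of 1 in edgeR's quasi-likelihood test. The Egln1 5′ end differed by 2.82 points between AG120 and Vehicle and by -0.728 points between the combination and AZA, with an interaction p of 0.324 and an adjusted p of 1 in the same test. The Egln3 5′ end differed by -3.57 points between AG120 and Vehicle and by 5.72 points between the combination and AZA, with an interaction p of 0.0516 and an adjusted p of 1 in the same test. The first combination library of Egln3 held 109 reads and the first AG120 library 28, and the part of this depth in the difference was not tested.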

How the results depend on the processing

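With the quasi-likelihood test, 0 gene ends and 0 member ends were called in all 5 pairwise comparisons, both factors and the interaction under 50 reads per library, 10 positions, no coverage filter, the shorter window, capped reads and the replicate block. Deviations from the group mean were not shared between libraries of the same replicate number: their correlations lay between -0.0168 and 0.00799, and the replicate block called 0 ends. Since the libraries mostly read different cytosines, these correlations cannot decide whether the libraries were paired. limma also called 0. Shared cytosines alone (1895 windows, 3 of members) gave 1 gene end in AG120 against Vehicle, 1 in the combination against Vehicle and 1 for the AG120 factor. The likelihood ratio test called 161 gene ends in the combination against Vehicle, 3 in AG120 against Vehicle, 7 in AZA against Vehicle, 137 in the combination against AZA, 185 in the combination against AG120, 255 for the AG120 factor, 158 for the AZA factor and 68 for the interaction. DESeq2 called 142, 0, 2, 149, 247, 350, 188 and 91 in the same order. Of member ends, the likelihood ratio test called 1 in the combination against AZA, 1 for the AG120 factor and 1 for the interaction, and DESeq2 called the same number in each and 1 in the combination against AG120. The cause was not tested.

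The median differences over member ends moved with the reads, cytosines and ends used. On shared cytosines (3 ends) they were 0 for the combination against Vehicle, 0 for AG120 against Vehicle and 0.964 for AZA against Vehicle, with the same values unweighted. The combination against Vehicle was 0 over the 14 ends with cytosines read in the 4 libraries compared, an alternative chosen after seeing the data. The alternatives on shared cytosines changed the ends as well as the cytosines, and the part of each was not tested. With capped reads the combination against AZA was 0. Leaving out 1 library, gene ends called ranged from 0 to 1 in AG120 against Vehicle and for the AG120 factor (1 without AG120 replicate 1) and were 0 elsewhere. A lone library left in a group was assumed to vary like the other groups. The medians ranged from -0.818 to 0 for the combination against Vehicle (0 without Vehicle replicate 1), from -0.707 to -0.0286 for AG120 against Vehicle, from -0.196 to 0.334 for AZA against Vehicle (0.334 without Vehicle replicate 1), from -0.380 to 0 for the combination against AZA (0 without AZA replicate 2) and from -0.320 to 0.108 for the combination against AG120. Of 1155 differences of single ends recomputed, 1054 moved by less than the spread between libraries and 101 by more.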

Other observations

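Some starts of member genes lie outside the kept ends, and their cytosines add genes without a kept value. Of Kdm4c, a histone H3 demethylase, the start at chr4:74251629-74251928 (GRCm38.p6) had 339 of 8668 reads methylated (3.91%) over the 8 libraries, with 0 of 19 and 6.67% of 3506 reads in the combination, 2.171% of 3777 reads in the second AG120 library, 0 of 426 and 0 of 361 reads with AZA, and 6.67% of 345 and 0 of 234 reads with Vehicle. The first AG120 library had no read there. Fto, an RNA demethylase, had 12 of 5839 reads methylated (0.206%), with reads in 6 of the 8 libraries. Of Kdm3a, 0 of 405 reads at the start with the most CpGs were methylated, all from the second AZA library.

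An inner start of Jmjd1c (chr10:67126838-67127137), read in all 8 libraries, had 13 of 13758 reads methylated (0.0945%), and an inner start of Kdm2b (chr5:122900301-122900600) had 127 of 15237 (0.833%). In Jmjd1c the level was 0% and 0% in the combination, 0% and 0% with AG120, 0% and 0.528% with AZA and 0% and 9.84% with Vehicle, the last from 61 reads. In Kdm2b it was 0% and 0% in the combination, 0% and 0% with AG120, 0% and 3.85% with AZA and 0% and 1.60% with Vehicle, and the second combination library held 10 reads. No listed start of Jmjd1c lies in its kept end. The same holds for Alkbh2 (chr5:114128169-114128468), with 17 of 6173 reads methylated (0.275%), all in the second AZA library. It also holds for P4htm (chr9:108597563-108597862, which overlaps the kept window in part), with 187 of 14936 reads methylated (1.25%). Jmjd8, kept only at its 3′ end, had 114 of 2740 reads methylated (4.16%) at its start (chr17:25828793-25829092). The level there was 15.7% of 249 reads in the first Vehicle library, 0% of 981 and 13.8% of 529 reads with AZA, and 0% of 25 and 0% of 950 reads with AG120. The combination libraries held 5 reads and 1 read, and the second Vehicle library none.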
